A study of Mus musculus and Homo sapiens with 34 samples.

Results

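The 9 genes described here encode the proteins that alveolar type 2 cells use to make, store and secrete lung surfactant: Sftpa1, Sftpb, Sftpc, Sftpd, Napsa, Lamp3, Abca3, Slc34a2 and Lpcat1. They were taken by gene name, in upper case for human genes, and they are 9 of the 48431 mouse and human gene identifiers listed over the 7 count tables of the study. Surfactant is a film of phospholipid and protein that lowers surface tension in the air sacs of the lung. Type 2 cells assemble it in lamellar bodies, lysosome-related organelles whose contents are released at the cell surface. Many of these genes are known targets of the lung lineage factor NKX2-1, and their products serve as markers of type 2 cells and of lung adenocarcinomas that keep this identity.

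RNA was sequenced in 34 libraries that formed 17 groups of 2, of which 22 came from cultures of mouse lung tumours and 12 from lines of human lung adenocarcinoma (LUAD). The study compared loss or gain of the liver and gut lineage factor HNF4α, and inhibition of oncogenic signalling, in cells that express NKX2-1. The 3154 organoids carried p53frt, Rosa-FSF-CreERT2 and Hnf4aflox alleles in every group. Their first treatment was 2 days of 4-hydroxytamoxifen (4OHT, at a labelled 2 mM) or its solvent ethanol, and 4OHT activates the Cre recombinase against Hnf4a; RNA was taken 2 weeks later. In a separate experiment 3154 received ethanol or 4OHT, each with vehicle or 3 nM of the inhibitor MRTX1133, with a labelled time of 48 hours. The labels do not give a separate interval after 4OHT for that experiment. No 3154 group received 4OHT without the Hnf4aflox allele, so effects of 4OHT or Cre activity and of Hnf4a loss cannot be told apart. Hnf4a deletion below names the comparison of 4OHT with ethanol. The 1027B organoids carried p53frt, Rosa-FSF-CreERT2, Foxa1flox and Foxa2flox alleles and received vehicle, 20 nM MRTX1133 or 10 nM of the MEK inhibitor trametinib for 48 hours. The mouse line 3311 had the same genotype and was grown for 48 hours with 50 nM trametinib or its vehicle. No agent that would delete Foxa1 or Foxa2 was named for 1027B or 3311. Both human lines, H358 and H1651, were given trametinib at 20 nM or vehicle over 48 hours. H1651 cells with a lentiviral HNF4A construct were also grown for 7 days with doxycycline at 1 µg/mL, or without it. Each mouse culture is a single line, and the labels do not say that replicates were separate cultures, so p values measure only the spread between these libraries, which may be technical.

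The regulatory sequence of 4 members is shown because 3 of them, Sftpa1, Sftpb and Lamp3, fell with trametinib in 1027B while Lpcat1 rose. Each line gives the 250 bases before the RefSeq start of the gene on GRCm38.p6, read 5′ to 3′ on the gene's own strand. Sftpb is at chr6:72304360-72304609 on the plus strand, Sftpa1 at chr14:41131538-41131787 on the plus strand, Lamp3 at chr16:19706366-19706615 on the minus strand and Lpcat1 at chr13:73466981-73467230 on the plus strand.
Sftpb: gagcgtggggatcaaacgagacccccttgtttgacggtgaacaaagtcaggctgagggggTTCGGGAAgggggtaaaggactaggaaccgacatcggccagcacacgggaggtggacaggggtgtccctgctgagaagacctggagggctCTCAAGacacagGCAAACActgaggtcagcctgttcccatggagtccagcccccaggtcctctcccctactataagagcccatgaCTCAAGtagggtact
Sftpa1: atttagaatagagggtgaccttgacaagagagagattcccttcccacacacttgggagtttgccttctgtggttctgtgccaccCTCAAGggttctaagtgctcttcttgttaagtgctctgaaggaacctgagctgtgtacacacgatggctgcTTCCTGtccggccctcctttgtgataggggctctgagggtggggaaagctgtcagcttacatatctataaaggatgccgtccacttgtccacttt
Lamp3: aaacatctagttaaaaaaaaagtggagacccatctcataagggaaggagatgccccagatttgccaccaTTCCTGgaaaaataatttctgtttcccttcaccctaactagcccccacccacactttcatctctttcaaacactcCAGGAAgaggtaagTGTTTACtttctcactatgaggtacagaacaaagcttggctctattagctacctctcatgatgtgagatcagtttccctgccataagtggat
Lpcat1: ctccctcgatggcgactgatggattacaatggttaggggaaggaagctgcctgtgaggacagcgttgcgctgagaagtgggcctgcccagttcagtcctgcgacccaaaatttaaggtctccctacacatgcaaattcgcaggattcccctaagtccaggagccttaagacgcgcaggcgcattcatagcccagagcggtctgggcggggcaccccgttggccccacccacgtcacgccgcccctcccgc
Capitals mark exact matches, on either strand, to letters typical of 5 kinds of factor that act on lung or liver genes. CTCAAG stands for NKX2-1 and was found in 13.3% of all 32851 such windows of 250 bases. TGTTTAC or TGTTTGC stands for FOX factors (7.29% of windows), TTNNGNAA for C/EBP factors (36.8%), CCGGAA or CAGGAA for ETS factors (35.1%) and CAAAGNNCA for HNF4 (5.49%). The Sftpb window held CTCAAG at -100 to -95 and at -15 to -10 from the start, FOX letters at -88 to -82 and C/EBP letters at -190 to -183. The Sftpa1 window held CTCAAG at -166 to -161 and ETS letters at -95 to -90. The Lamp3 window held FOX letters at -92 to -86 and ETS letters at -181 to -176 and -106 to -101. The Lpcat1 window held no match to the letters searched, and no match overlapped another. Slc34a2, which was also called lower with trametinib in 1027B, had a window that is not shown. That window held C/EBP letters at -48 to -41 and no other match. The window of Abca3, which was not called there, is not shown either and held only ETS letters at -156 to -151. A match describes the letters only. Of the 9 members, 6 had a promoter entry in the RefSeq table, and Sftpc, Sftpd and Napsa were not matched.

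Total counts ran from 19692517 to 45284286 per library. Hnf4a stood at 315 and 427 CPM (counts scaled to a common library size, with TMM factors) 2 weeks after ethanol and at 53.4 and 67.9 CPM after 4OHT, and in the 48-hour experiment at 180 to 230 CPM in the 4 ethanol libraries and at 25.3 to 50.3 CPM in the 4 4OHT libraries. HNF4A stood at 47.0 and 35.9 CPM in H1651 without doxycycline and at 94.3 and 96.7 CPM with it, and had 0 counts in all 4 H358 libraries. In 1027B Hnf4a stood at 446 and 471 CPM with vehicle, 297 and 242 CPM with MRTX1133 and 254 and 200 CPM with trametinib. With MRTX1133 in 3154 it went from 221 and 230 to 180 and 184 CPM after ethanol. After 4OHT it went from 49.4 and 50.3 to 25.3 and 29.8 CPM. With trametinib the groups overlapped in 3311 and H1651. The part of Hnf4a in the drug effects was not tested. Nkx2-1 was at 176 to 431 CPM in every mouse library, NKX2-1 at 118 to 175 CPM in H358 and at 24.3 to 64.6 CPM in H1651, so the lung lineage factor was present throughout. Its level moved with the drugs in some cultures. With trametinib it went from 312 and 316 to 412 and 431 CPM in 1027B. In H358 it went from 118 and 132 to 170 and 175 CPM. With MRTX1133 it stood at 374 and 384 CPM in 1027B, and it was above vehicle in both 3154 arms. Its groups overlapped with trametinib in 3311 and H1651. Its part in the changes of the members was not tested. With trametinib, 8 of 9 tested genes of a list that reports ERK pathway output fell in 1027B, where 26.7% of all genes were called, 9 of 10 in 3311 (39% called) and 10 of 10 in H358 (46.8%). None of 10 was called in H1651, where their median log2 change was -1.83. With MRTX1133, 5 of 9 fell in 1027B (6.27% of all genes called), 3 of 10 in 3154 after 4OHT (4.64%) and 0 of 10 in 3154 after ethanol (0.349%), with list medians of -1.11, -0.50 and -0.39. The lung epithelial markers Nkx2-1, Epcam, Cdh1, Sftpb and Sftpc were all detected in every mouse group. Because these are bulk cultures, fewer cells of a type and less RNA per cell cannot be told apart. With 2 libraries a group no exact permutation test could reach p under 0.05, so every p value below is an edgeR quasi-likelihood value, unless DESeq2 is named, adjusted by the Benjamini-Hochberg method over all genes tested in a table, and a gene was called at an adjusted p under 0.05.

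Untreated cultures differed in which surfactant protein gene led. Levels between genes are compared as CPM per kilobase of merged exons, as mean ± SD (n = 2). Sftpb, which encodes the hydrophobic protein needed to spread the surfactant film, led in 1027B with 4012 ± 1401 and in 3311 with 2323 ± 258. It also led in 3154 at 2 weeks after ethanol with 4476 ± 1170. In the 48-hour 3154 experiment Sftpc, which encodes the other hydrophobic surfactant protein and is the most restricted marker of type 2 cells, led with 4164 ± 1576 against 1451 ± 7.31 for Sftpb. Sftpc stood at 341 ± 234 in 3154 at 2 weeks and at 63.5 ± 53.2 in 1027B, and in 3311 it had only 2 and 1 counts. By library, Sftpb vehicle levels in 1027B (5946 and 9846 CPM) overlapped those of 3154 at 2 weeks (7180 and 10436 CPM). Those of 3311 (4213 and 4930 CPM) and of the 48-hour ethanol vehicle group (2846 and 2866 CPM) lay lower and did not overlap. The tables were scaled separately, so these levels are described and not tested.

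The remaining members were lower than the leading surfactant protein genes in each mouse culture. In 1027B the order in CPM per kilobase was Sftpd at 85.7 ± 20.2, Sftpc, Lamp3 at 54.1 ± 11.1, Abca3 at 38.3 ± 1.87, Sftpa1 at 28.9 ± 11.4, Slc34a2 at 26.9 ± 2.77, Lpcat1 at 22.1 ± 0.191 and Napsa at 5.56 ± 2.25. The libraries of neighbours in this order overlapped between Sftpd and Sftpc, Sftpc and Lamp3, Abca3 and Sftpa1, and Sftpa1 and Slc34a2, so these steps did not exceed the spread. Abca3, the transporter that loads phospholipid into lamellar bodies, ranged over a narrow span, at 29.8 ± 1.97 in 3154 at 2 weeks, 24.0 ± 6.23 in the 48-hour ethanol vehicle group and 27.8 ± 1.64 in 3311. Lamp3, a lamellar body membrane protein, was at 0.676 ± 0.766 in 3154 at 2 weeks but at 18.0 ± 3.16 in the 48-hour experiment. Lpcat1, the enzyme that remodels phosphatidylcholine into the saturated form used in surfactant, ranged from 3.81 ± 0.493 in 3311 to 90.2 ± 3.09 in 3154 at 2 weeks. In 3311, Napsa had 12 and 9 counts and Sftpa1 had 6 and 7, and Sftpd, Lamp3 and Slc34a2 were not analysed here.

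**Figure D1:**
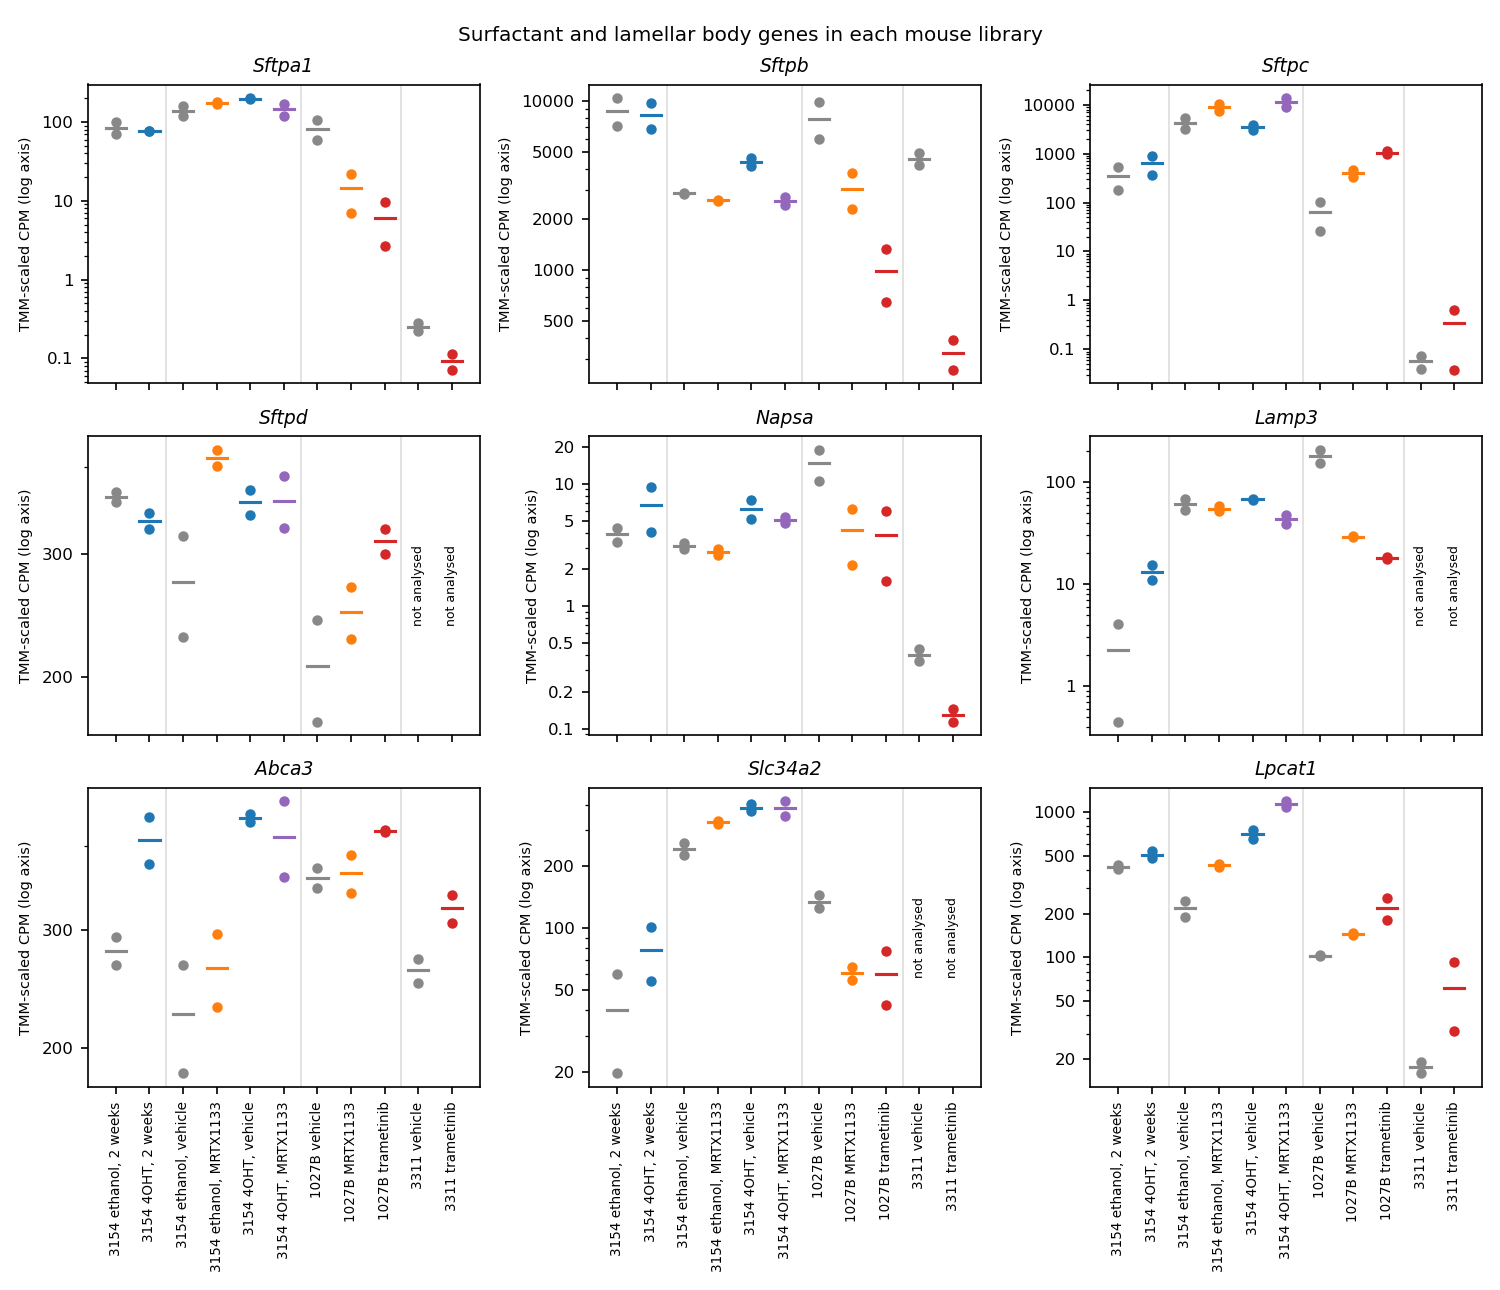
TMM-scaled CPM of the 9 genes in each of the 22 mouse libraries (log axis), by culture and treatment, with points for libraries and bars for the mean of 2. Sftpc climbs across the 1027B panel from 26.8 and 104 CPM with vehicle to 1137 and 978 CPM with trametinib while Sftpb descends from 5946 and 9846 to 649 and 1333 CPM. Lpcat1 is lowest in the 3311 vehicle libraries at 19.3 and 16.0 CPM.

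Trametinib split the gene set in 1027B organoids. Of 9 members, 7 were called, 3 higher and 4 lower, against 26.7% of all 14555 genes tested, 13.5% higher and 13.2% lower. The median log2 change of the members was -1.16, beside -0.01 over all genes. Among the secreted proteins, Sftpc and Sftpd rose and Sftpb and Sftpa1 fell. Sftpc stood at 26.8 and 104 CPM with vehicle and at 1137 and 978 CPM with trametinib. Both treated libraries lay above both vehicle libraries, and the fold change was 16.1 (log2 change 4.01 ± 0.60 SE, adjusted p = 0.00507). The vehicle libraries lay far apart, and the log2 change was 3.34 without vehicle replicate 1 and 5.33 without vehicle replicate 2, called in both. Sftpb stood at 5946 and 9846 CPM with vehicle and at 649 and 1333 CPM with trametinib. The groups did not overlap, and Sftpb was 7.97-fold lower (log2 change -2.99 ± 0.44, adjusted p = 0.00491), or by a log2 change of -3.61 without trametinib replicate 2. Per kilobase, Sftpb was above Sftpc in both vehicle libraries (3021 and 5003 against 25.9 and 101), and with trametinib Sftpc was above Sftpb in both libraries (1099 and 946 against 330 and 677).

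The collectins, which bind carbohydrates on microbes, also moved apart in 1027B. Sftpa1 stood at 59.7 and 106 CPM with vehicle and at 2.67 and 9.56 CPM with trametinib, without overlap, and was 13.6-fold lower (log2 change -3.76 ± 0.73, adjusted p = 0.0120). The call was lost without trametinib replicate 1 (log2 change -3.11, adjusted p = 0.0600), and the log2 change was -4.95 without trametinib replicate 2. Sftpd stood at 172 and 242 CPM with vehicle and at 326 and 301 CPM with trametinib (log2 change 0.60 ± 0.17, adjusted p = 0.0453). The Sftpd groups did not overlap, but its call was lost without vehicle replicate 1 (adjusted p = 0.155), trametinib replicate 1 (0.189) or trametinib replicate 2 (0.0936). Napsa, the aspartic protease that cleaves the Sftpb and Sftpc precursors, stood at 10.6 and 19.0 CPM with vehicle and at 1.602 and 6.01 CPM with trametinib, with a log2 change of -1.96 ± 0.69 that was not called (adjusted p = 0.0779). It was called with the replicate block (log2 change -2.11, adjusted p = 0.000348). The log2 change was -3.20 without trametinib replicate 2 and -1.29 without trametinib replicate 1. About 18.9% of the exon bases of Napsa lie opposite Gm15396, and the strand setting of the counting is not given in the sources used here.

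The lamellar body and lipid genes showed both directions too. Lamp3 stood at 208 and 155 CPM with vehicle and at 17.6 and 18.3 CPM with trametinib. The tight treated pair lay far below vehicle, 10.1-fold lower (log2 change -3.34 ± 0.16, adjusted p = 0.000379), and Lamp3 ranked 7 by p value among all genes tested. Slc34a2, the phosphate transporter that takes up phosphate released by surfactant turnover, stood at 125 and 145 CPM with vehicle and at 78.0 and 42.4 CPM with trametinib. It fell 2.24-fold (log2 change -1.16 ± 0.27, adjusted p = 0.0204), a call that was lost without vehicle replicate 2 (adjusted p = 0.0886). Lpcat1 rose from 103 and 102 CPM to 257 and 182 CPM (log2 change 1.10 ± 0.16, adjusted p = 0.00508). Abca3 stood at 347 and 371 CPM with vehicle and at 423 and 420 CPM with trametinib, a log2 change of 0.23 ± 0.11 that was not called (adjusted p = 0.155), although the replicate block called it (adjusted p = 0.0278). With that block all 9 members were called, against 44.9% of genes.

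MRTX1133, at 20 nM in the same 1027B experiment, raised Sftpc and lowered Lamp3. It was compared with the vehicle libraries that trametinib was compared with, so the values of the drugs stand side by side and are not independent. Of 9 members 2 were called, 1 higher and 1 lower, against 6.27% of genes tested, 3.01% higher and 3.26% lower, with a median log2 change of -1.16 beside 0.01 over all genes. Sftpc stood at 333 and 459 CPM, above both vehicle libraries (log2 change 2.59 ± 0.56, adjusted p = 0.0454). That call was lost without MRTX1133 replicate 1 (adjusted p = 0.104), without MRTX1133 replicate 2 (0.136) and when only the 2 groups were fitted (0.0753). The log2 change was 1.92 without vehicle replicate 1 and 3.91 without vehicle replicate 2, and was called in both. Lamp3 fell to 29.7 and 28.8 CPM (log2 change -2.63 ± 0.16, adjusted p = 0.00222) and ranked 2 by p value among all genes tested.

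The other members in 1027B were not called with MRTX1133 in the edgeR fit of all 3 groups with the default count filter and no replicate block. Sftpb was at 2310 and 3765 CPM, below both vehicle libraries, with a log2 change of -1.38 (adjusted p = 0.108). Sftpa1 was at 6.94 and 22.1 CPM, with a log2 change of -2.52 (adjusted p = 0.0818) that was -1.90 without MRTX1133 replicate 1 and -3.56 without MRTX1133 replicate 2. Slc34a2 was at 56.2 and 64.6 CPM (log2 change -1.16, adjusted p = 0.0520). It was called under DESeq2 (0.000806), with no count filter (0.0476) and when only the 2 groups were fitted (0.0169). With the block 7 members were called, against 24.1% of genes, and among them were Sftpb (adjusted p = 8.05e-05), Sftpa1 (0.000156), Slc34a2 (0.00852), Napsa (0.00139) and Lpcat1 (0.0251). Sftpd had a log2 change of 0.26 and Abca3 of 0.02. Set directly against each other, with doses of 20 nM and 10 nM, MRTX1133 and trametinib gave 0 called members of 9. None of 14555 genes was called by edgeR without the block (0%), while 2357 genes had an unadjusted p under 0.05. DESeq2 called Lamp3 and Lpcat1, and its share of all genes called was not taken. The replicate block called 5 members, against 14.1% of genes. Sftpb was higher under MRTX1133 than under trametinib by a log2 difference of 1.62 (95% interval 0.62 to 2.61, adjusted p = 0.160; with the block 1.66, adjusted p = 0.000481).

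Marker lists of other lineages moved in the same 1027B libraries. The 3 club cell markers summed to 1.06 to 7.80 CPM with vehicle, 69.8 to 80.7 CPM with MRTX1133 and 152 to 282 CPM with trametinib. The 4 gastric markers analysed, of a list of 6, summed to 3264 to 4158 CPM with vehicle, 464 to 742 CPM with MRTX1133 and 348 to 427 CPM with trametinib. From vehicle to MRTX1133 to trametinib, endothelial markers were at 2.86 to 3.95, 4.57 to 7.13 and 8.10 to 10.02 CPM, ciliated at 0.532 to 0.758, 1.41 to 1.64 and 2.09 to 3.26 CPM, and basal at 2.18 to 2.92, 1.25 to 1.30 and 0.233 to 0.890 CPM. Fibroblast markers were at 0.532 to 0.920, 1.11 to 1.69 and 1.03 to 1.69 CPM, and leukocyte markers at 7.80 to 8.28, 5.33 to 5.495 and 6.43 to 7.16 CPM. Their part in the changes of the surfactant genes was not tested. Beside the lists given next, 26.7% of all genes were called with trametinib, 13.5% higher and 13.2% lower. Among genes that process and recycle surfactant, 4 of 15 tested rose with trametinib, among them Csf2ra, a receptor subunit for GM-CSF (log2 change 1.15), and 4 fell, among them Cd36, a fatty acid receptor (-2.39), with a list median of 0.20. Among genes of surfactant lipid synthesis, 2 of 15 rose, Pcyt1a (1.44) and Chpt1 (1.31) of phosphatidylcholine synthesis, and 4 fell, among them Fabp5 (-1.77) and Acly (-0.72), with a median of -0.17. Of 15 other type 2 cell genes 7 rose, among them Lgi3 (4.49) and Hc (3.87), and 3 fell, among them Il33 (-2.58) and Etv5 (-1.44), with a median of 0.87. Of 14 factors that act on surfactant genes 3 rose, among them Hopx (1.45) and Foxa2 (0.48), and 3 fell, among them Sox9 (-1.93) and Etv5, with a median of -0.03.

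**Figure D2:**
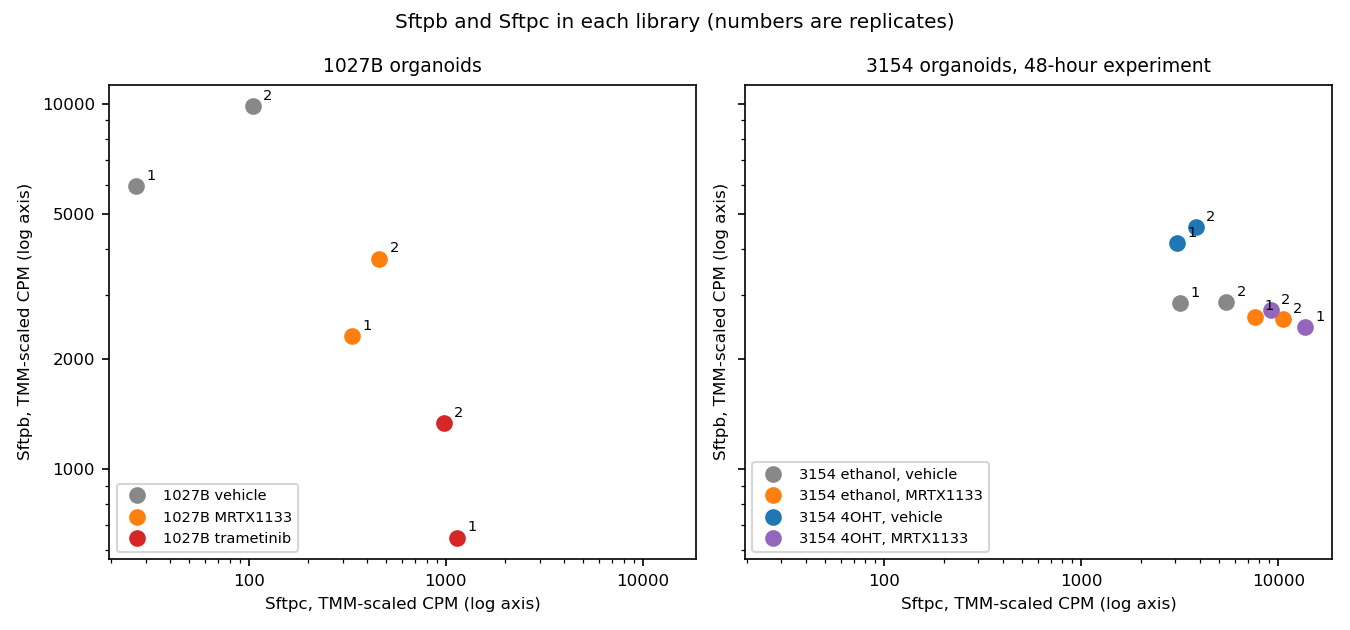
Sftpb against Sftpc in each library of 1027B and of the 48-hour 3154 experiment, both axes in TMM-scaled CPM on log axes, 1 point per library. In 1027B the vehicle libraries sit at high Sftpb and low Sftpc (26.8 and 104 CPM) and the trametinib libraries at Sftpc of 1137 and 978 CPM, and in 3154 the MRTX1133 libraries lie to the right of the vehicle libraries, at higher Sftpc, whether after ethanol or 4OHT.

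In the mouse line 3311, 50 nM trametinib lowered Sftpb and raised Lpcat1. Of 3 members tested 2 were called, 1 in each direction, against 39% of genes, 19.4% higher and 19.6% lower. Sftpb fell from 4213 and 4930 CPM to 258 and 387 CPM, a 14.2-fold difference between groups that did not overlap (log2 change -3.82 ± 0.27, adjusted p = 0.000392). Lpcat1 stood at 19.3 and 16.0 CPM with vehicle and at 92.5 and 31.5 CPM with trametinib (log2 change 1.81 ± 0.45, adjusted p = 0.0187). Its treated libraries differed widely from each other, and the call was lost without vehicle replicate 1 (adjusted p = 0.0779) or vehicle replicate 2 (0.0874). Without trametinib replicate 1 the log2 change of Lpcat1 was 0.83 (adjusted p = 0.0346). Abca3 stood at 250 and 272 CPM and at 338 and 308 CPM (log2 change 0.31, adjusted p = 0.122). The untested members had few counts: Sftpc had 2 and 1 with vehicle and 18 and 1 with trametinib, Napsa 12 and 9 then 4 and 3, and Sftpa1 6 and 7 then 2 and 3. Of 15 lipid synthesis genes 3 rose, with Pcyt1a and Chpt1 each at a log2 change of 3.07, and 4 fell, among them the desaturase Scd1 (-1.45), with a median of -0.06 beside 0.01 over all genes. The 3 leukocyte markers analysed, of a list of 5, summed to 9.55 to 15.7 CPM with vehicle and 21.8 to 28.6 CPM with trametinib, with Ptprc at 0 counts in both groups. The 1 club cell marker analysed stood at 0.334 to 0.398 and 2.02 to 2.65 CPM, and the 1 gastric marker analysed at 30.6 to 42.2 and 9.75 to 21.8 CPM. Ciliated markers summed to 0.483 to 1.11 and 2.28 to 3.91 CPM, endothelial to 3.23 to 4.14 and 2.36 to 2.83, fibroblast to 14.9 to 15.8 and 11.4 to 14.4, and the 1 basal marker analysed stood at 0.854 to 0.876 and 0.0717 to 0.228 CPM. Their part in the changes of Sftpb and Lpcat1 was not tested.

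In 3154 organoids 5 of 9 members were called higher after 4OHT (Hnf4a deletion) than after ethanol in the 48-hour experiment with vehicle. None was called lower. Of all genes tested 31% were called, 15.3% were called higher and 16.3% were called with at least a 2-fold change, and the members' median log2 change was 0.62 beside 0.01 over all genes. Lpcat1 rose most, from 189 and 245 CPM after ethanol to 654 and 754 CPM after 4OHT (log2 change 1.70 ± 0.16, adjusted p = 0.000446). Sftpb rose from 2846 and 2866 CPM to 4155 and 4597 CPM (log2 change 0.62 ± 0.12, adjusted p = 0.00633). Neither gene's groups overlapped, and the spread between libraries was small beside the change.

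The other 3 rises on deletion were in Abca3, Slc34a2 and Napsa. Abca3 rose from 266 and 183 CPM to 435 and 447 CPM (log2 change 0.97 ± 0.22, adjusted p = 0.0120), and about 9.75% of its exon bases lie opposite D330041H03Rik. Slc34a2 rose from 228 and 259 CPM to 373 and 401 CPM (log2 change 0.67 ± 0.13, adjusted p = 0.00732). Napsa rose from 3.28 and 2.94 CPM to 5.15 and 7.32 CPM (log2 change 1.00 ± 0.23, adjusted p = 0.0137), on 78 and 70 counts after ethanol. Each of these 3 genes stood higher in both 4OHT libraries than in both ethanol libraries. Without replicate 2 of the 4OHT vehicle group Lpcat1 alone was called, since Sftpb (adjusted p = 0.0693), Abca3 (0.0736), Slc34a2 (0.0750) and Napsa (0.122) missed the threshold. Abca3 also missed it without replicate 1 of that group (0.0620), and Napsa when only the 2 groups were fitted (0.0534). Without ethanol vehicle replicate 2 the log2 changes of Sftpa1 and Sftpd were 0.72 and 0.63, and without ethanol vehicle replicate 1 they were 0.30 and 0.15. The other surfactant protein genes were not called, with log2 changes of 0.50 for Sftpa1 (adjusted p = 0.0907), 0.38 for Sftpd (0.133) and -0.32 for Sftpc (0.448).

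With MRTX1133 in both arms, deletion raised 2 of 9 members, against 27.7% of genes called, 13.2% called higher and 14.2% called with at least a 2-fold change. Lpcat1 stood at 441 and 416 CPM after ethanol and at 1176 and 1077 CPM after 4OHT (log2 change 1.39 ± 0.16, adjusted p = 0.000812), the same direction as with vehicle. Napsa had a log2 change of 0.88 ± 0.23 (adjusted p = 0.0260), a call that was lost whichever library of the comparison was left out (adjusted p 0.0759 to 0.131). Abca3 had a log2 change of 0.65 that was not called (adjusted p = 0.0554), but it was called under DESeq2 (0.0306), upper-quartile scaling (0.0232), the filter of 10 counts in every library (0.0493) and a fit of only the 2 groups (0.0332). Sftpb, which had risen with vehicle, had a log2 change of -0.01 (adjusted p = 0.979). The difference of the deletion effect with and without MRTX1133 was tested as an interaction, which for Sftpb was -0.62 ± 0.16 (adjusted p = 0.541). None of the 9 members was called in that test, nor was any of 15458 genes (0%), although 1150 had an unadjusted p under 0.05. Under MRTX1133 the 3 club cell markers summed to 145 to 196 CPM after ethanol and 949 to 964 CPM after 4OHT, and the 5 gastric markers analysed, of a list of 6, to 102 to 146 and 242 to 280 CPM. The 1 fibroblast marker analysed stood at 0.115 to 0.121 and 0.426 to 0.473 CPM, and the 2 endothelial markers analysed summed to 1.85 to 2.45 and 4.49 to 4.51 CPM. Basal markers summed to 4.67 to 4.74 and 13.5 to 16.5 CPM, ciliated markers to 1.49 to 1.68 and 2.98 to 3.39 CPM, and leukocyte markers to 2.69 to 5.32 and 4.41 to 6.92 CPM. Their part in the rise of Lpcat1 was not tested.

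At 2 weeks no member was called on Hnf4a deletion in the edgeR fit of all libraries with TMM scaling and no replicate block, against 9.81% of 14492 genes. An unadjusted p under 0.05 was reached by 4154 genes, among them the members Lamp3 and Abca3. Lamp3 stood at 4.09 and 0.449 CPM after ethanol and at 15.5 and 10.98 CPM after 4OHT (log2 change 2.50 ± 0.82, adjusted p = 0.117). Both 4OHT libraries lay above both ethanol libraries, which were far apart, the lower one on 10 counts. Abca3 stood at 292 and 266 CPM and at 442 and 376 CPM (log2 change 0.55 ± 0.14, adjusted p = 0.0637). DESeq2 (adjusted p = 0.0171) and upper-quartile scaling (0.0448) called Abca3. A replicate block, where samples shared only a number, called Sftpc (adjusted p = 0.00138), Slc34a2 (0.00445), Abca3 (0.00641) and Lamp3 (0.00711). Without the block Sftpc had a log2 change of 0.84 (adjusted p = 0.397) and Slc34a2 of 0.97 (0.293). Sftpc ran from 0.0354 without 4OHT replicate 1 to 1.80 without ethanol replicate 1. From the fit without ethanol replicate 2 to that without ethanol replicate 1, Slc34a2 ran from 0.39 to 1.98 and Lamp3 from 1.70 to 4.85. Sftpb stood at 7180 and 10436 CPM after ethanol and at 6876 and 9775 CPM after 4OHT, so its groups overlapped (log2 change -0.08, adjusted p = 0.856).

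Other gene lists were counted in the 48-hour 3154 deletion with vehicle, where 31% of all genes were called. Of the alveolar type 1 genes, 7 of 9 rose, among them Rtkn2 (log2 change 3.28) and Akap5 (2.44), with a median of 0.86 beside 0.01 over all genes. Of 15 other type 2 genes 4 rose, among them Cd74, the MHC class II chaperone (3.04), and 3 fell, among them Pgc, a gastric protease that type 2 cells also make (-2.70), with a median of 0.31. Of 14 processing and turnover genes 2 rose, Csf2ra (2.37) and Ctsh, a protease that trims the Sftpb and Sftpc precursors (0.58), and Rab27a fell (-0.54), with a median of -0.15. Of 16 lipid synthesis genes 1 rose, the lipid droplet protein gene Plin2 (0.83), and 3 fell, among them Fabp5 (-1.68) and Cept1 (-0.82), with a median of -0.09. The club cell markers summed to 35.2 to 70.1 CPM after ethanol and 427 to 636 CPM after 4OHT, and the gastric markers to 179 to 258 and 562 to 602 CPM. Sums of the other lists were lower: basal markers were at 6.29 to 7.07 and 13.1 to 15.1 CPM, endothelial at 1.01 to 2.14 and 2.39 to 3.35, ciliated at 0.210 to 0.545 and 0.872 to 1.83, and fibroblast at 0.168 to 0.336 and 0.446 to 0.493. Leukocyte markers were at 5.45 to 5.59 and 5.08 to 5.36 CPM. Their part in the rises of the surfactant genes was not tested.

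MRTX1133 at 3 nM in 3154 gave 0 called members of 9 after ethanol by edgeR with the default count filter, against 0.349% of genes. An unadjusted p under 0.05 was reached by 1820 of 15458 genes. DESeq2 called Sftpc and Lpcat1 there, and a fit with no count filter called Lpcat1. The share of all genes called in those fits was not taken. Sftpc stood at 3153 and 5457 CPM with vehicle and at 7574 and 10512 CPM with MRTX1133 (log2 change 1.07 ± 0.30, adjusted p = 0.236). Lpcat1 stood at 189 and 245 CPM and at 441 and 416 CPM (log2 change 0.98 ± 0.15, adjusted p = 0.0560). Neither gene's groups overlapped. Without ethanol vehicle replicate 2 the log2 changes of Sftpc, Sftpd and Lpcat1 were 1.52, 0.85 and 1.18. Without ethanol vehicle replicate 1 they were 0.73, 0.37 and 0.81.

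After 4OHT, 3 of 9 members were called with MRTX1133, 2 higher and 1 lower, against 4.64% of genes, with 2.1% higher, 2.54% lower and 2.09% changed at least 2-fold. Sftpc stood at 3078 and 3804 CPM with vehicle and at 13720 and 9165 CPM with MRTX1133 (log2 change 1.73 ± 0.31, adjusted p = 0.0266). Sftpb stood at 4155 and 4597 CPM with vehicle and at 2446 and 2718 CPM with MRTX1133 (log2 change -0.76 ± 0.12, adjusted p = 0.0198). Lpcat1 rose from 654 and 754 CPM to 1176 and 1077 CPM (log2 change 0.68 ± 0.15, adjusted p = 0.0488). None of these groups overlapped, but leaving out any 1 library of the comparison left 0 calls, with adjusted p values of 0.0773 to 0.267 for Sftpc, 0.0897 to 0.223 for Sftpb and 0.166 to 0.419 for Lpcat1. Lpcat1 also missed the threshold under upper-quartile scaling (0.0576) and with no count filter (0.0503). Lamp3, at a log2 change of -0.64 (adjusted p = 0.0756), was called under DESeq2 (0.0224) and when only the 2 groups were fitted (0.00465). The Sftpc and Sftpb signs were those of trametinib in 1027B, where dose, drug and genotype differ. The club cell markers summed to 427 to 636 CPM with vehicle and 949 to 964 CPM with MRTX1133, and the gastric markers to 562 to 602 and 242 to 280 CPM. Endothelial markers summed to 2.39 to 3.35 and 4.49 to 4.51 CPM, ciliated to 0.872 to 1.83 and 2.98 to 3.39, and basal to 13.1 to 15.1 and 13.5 to 16.5. Their part was not tested.

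**Figure D3:**
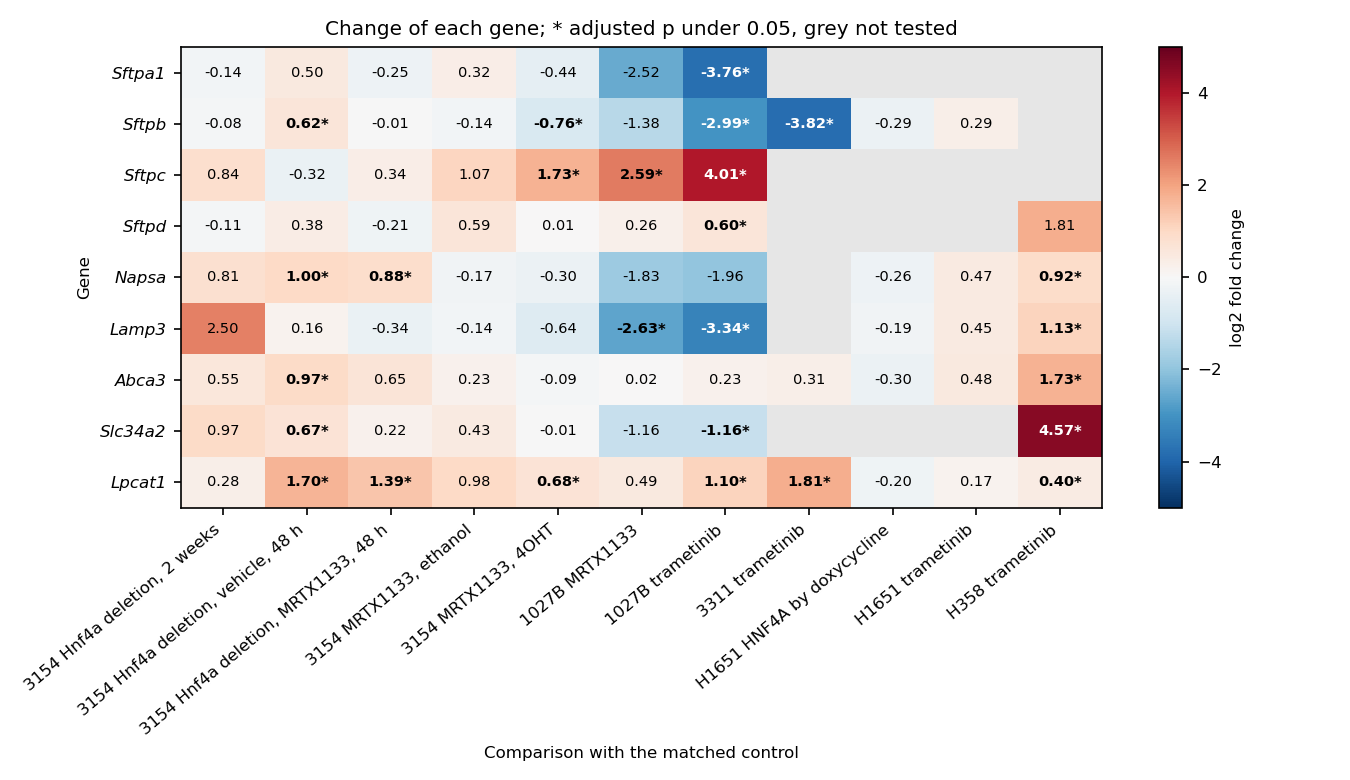
Log2 fold change of each member in the comparisons with a matched control, with genes in rows, comparisons in columns and a colour scale from lower to higher, and an asterisk where the adjusted p was under 0.05. Grey cells were not tested. The Sftpc row is 4.01 in 1027B with trametinib while the Sftpb row is -2.99 there and -3.82 in 3311, and the Lpcat1 row has no called fall in any column.

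In the human line H358, which had no HNF4A counts, 20 nM trametinib raised 5 of 6 members tested, against 46.8% of genes, with 23.5% called higher and 21.7% called with at least a 2-fold change. SLC34A2 rose from 0.129 and 0.179 CPM to 4.02 and 3.33 CPM, or from 5 and 6 counts to 187 and 85 (log2 change 4.57 ± 0.35, adjusted p = 4.95e-05). It passed the count filter only through the trametinib libraries, so nothing is drawn from its part in the count of 5. ABCA3 rose from 5.31 and 5.22 CPM to 15.8 and 19.1 CPM (log2 change 1.73 ± 0.17, adjusted p = 0.000136). LAMP3 rose from 3.00 and 3.22 CPM to 5.35 and 8.40 CPM (log2 change 1.13 ± 0.26, adjusted p = 0.00780). In each of these 3 genes both treated libraries lay above both vehicle libraries.

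The calls of NAPSA and LPCAT1 in H358 were less firm. NAPSA stood at 1.63 and 1.64 CPM with vehicle and at 3.89 and 2.20 CPM with trametinib (log2 change 0.92 ± 0.31, adjusted p = 0.0408). It lost its call without trametinib replicate 1 (log2 change 0.43, adjusted p = 0.368), vehicle replicate 1 (0.110) or vehicle replicate 2 (0.0813), and under DESeq2 (0.0684). LPCAT1 stood at 316 and 358.1 CPM and at 399 and 488 CPM (log2 change 0.40 ± 0.13, adjusted p = 0.0335). Its call was lost without trametinib replicate 2 (adjusted p = 0.121) or vehicle replicate 1 (0.210). SFTPD had 8 and 0 counts with vehicle and 22 and 7 with trametinib (log2 change 1.81, adjusted p = 0.103), and was called without trametinib replicate 2 (log2 change 2.08, adjusted p = 0.0300) but not without vehicle replicate 2 (0.89, adjusted p = 0.384). It was also called without vehicle replicate 1 (adjusted p = 0.0122), which leaves vehicle at 0 counts, so that the fitted log2 change of 6.78 depends on the prior count. SFTPD too passed the count filter only through its trametinib libraries. SFTPB had 0 counts in all 4 libraries, which allows up to 0.0400 CPM over the vehicle group and 0.0435 CPM over the trametinib group, for counting error only. SFTPA1 had 1 count in all, and its near-copy SFTPA2 had 4 and 3 then 1 and 4, so reads of the pair are uncertain. SFTPC was not analysed here. Fibroblast markers summed to 40.8 to 49.5 CPM with vehicle and 245 to 347 CPM with trametinib, and basal markers to 86.1 to 101 and 21.5 to 26.7 CPM. Endothelial markers summed to 13.5 to 15.3 and 28.1 CPM and ciliated markers to 45.5 to 50.6 and 72.9 to 94.9 CPM. Of the 5 gastric markers analysed 4 were at 0, and the sum was 2.21 to 3.44 and 0.157 to 0.193 CPM. Their part was not tested.

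In H1651 none of 5 members tested was called by edgeR without a replicate block, either with trametinib or with HNF4A induction. With trametinib no gene of 18277 was called (0%), and 597 had an unadjusted p under 0.05. ABCA3 stood at 47.6 and 29.2 CPM with vehicle and at 64.9 and 42.8 CPM with trametinib (log2 change 0.48, 95% interval -0.29 to 1.26). Its groups overlapped, although it was higher with trametinib within each replicate number. Without vehicle replicate 1 it was called (log2 change 0.88, adjusted p = 0.0442). LAMP3 stood at 21.3 and 14.4 CPM and at 30.2 and 18.6 CPM (log2 change 0.45). With doxycycline 1.42% of 17351 genes were called and 2203 had an unadjusted p under 0.05, and the log2 changes of SFTPB, NAPSA, LAMP3, ABCA3 and LPCAT1 ran from -0.30 to -0.19. ABCA3 stood at 42.7 and 37.9 CPM without doxycycline and at 38.8 and 26.6 CPM with it. SFTPB had at most 25 counts in any library of the doxycycline experiment. A replicate block in edgeR called ABCA3 and LAMP3 with trametinib (adjusted p = 6.09e-08 and 3.14e-05). With doxycycline the block called ABCA3 and LPCAT1 (adjusted p = 0.000138 and 0.00121). Samples shared only a number in these experiments, and the share of all genes called with the block was not taken.

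The trametinib effect was compared between H358 and H1651, at the same dose and time, as an interaction over 6 members. It was called for 2, against 19.3% of genes (9.43% higher), and both were higher in H358: SLC34A2 by a log2 difference of 4.34 ± 0.94 (adjusted p = 0.0143) and ABCA3 by 1.27 ± 0.37 (adjusted p = 0.0429). The SLC34A2 value is given as a description, because the gene passed the count filter only through the H358 trametinib libraries in which it is high. SLC34A2 missed the threshold without H358 vehicle replicate 1 (adjusted p = 0.0504) and without H1651 vehicle replicate 1 (log2 difference 2.29, adjusted p = 0.481). ABCA3 missed it in 6 of the 8 fits without 1 library, with adjusted p values from 0.0806 to 0.129. The H1651 libraries held few SLC34A2 counts, 10 and 1 with vehicle and 8 and 4 with trametinib, so the gene was not tested in H1651 alone. With at least 10 counts required in every library it was left out and ABCA3 alone was called (adjusted p = 0.0373).

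**Figure D4:**
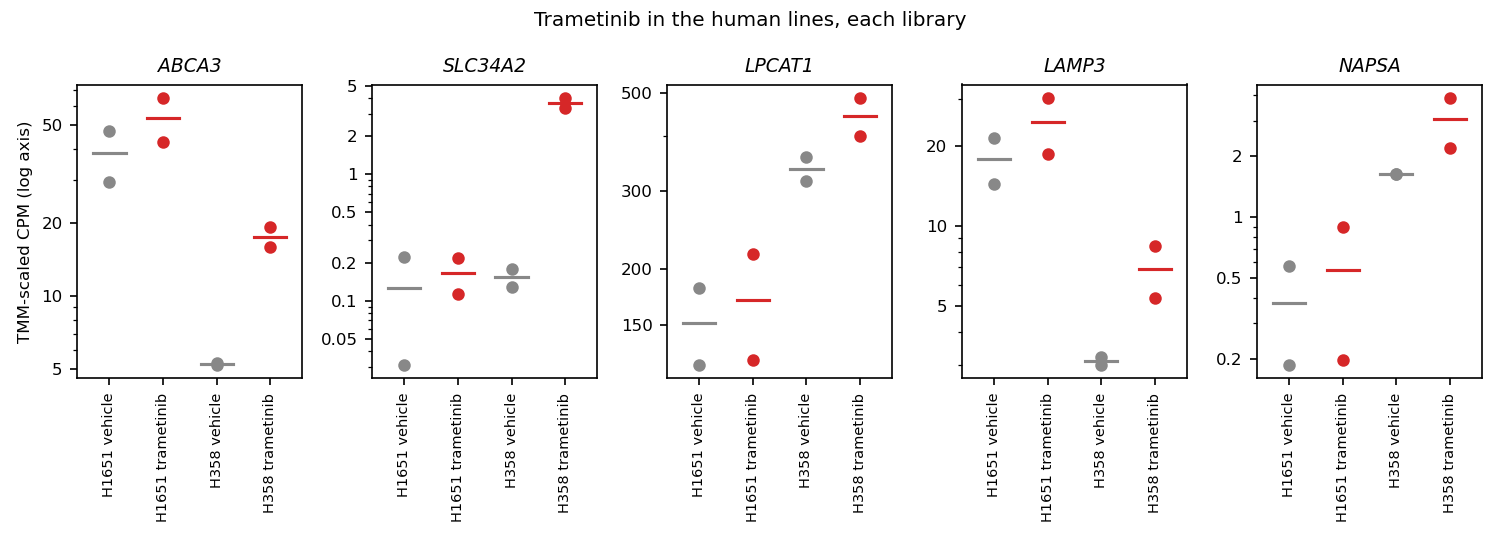
TMM-scaled CPM of ABCA3, SLC34A2, LPCAT1, LAMP3 and NAPSA in each library of the trametinib experiments in H1651 and H358 (log axes), with points for libraries and bars for the mean of 2. SLC34A2 stands at 0.129 and 0.179 CPM in H358 vehicle and at 4.02 and 3.33 CPM in H358 trametinib, while the H1651 groups overlap in every panel. The SLC34A2 panel is a description only, because the gene passed the count filter only through the H358 trametinib libraries.

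Across the 11 comparisons with a matched control, 8 in mouse and 3 in human, the members differed in how often and which way they were called. These tallies are not independent, since the 48-hour 3154 comparisons share groups and both 1027B drugs share a vehicle group. Over the 8 mouse comparisons the share of all genes called ran from 0.349% to 39%. The calls of Lpcat1, Sftpc and Sftpb with MRTX1133 after 4OHT, and of Lpcat1 in 3311, were among those lost when a library was left out. Mouse Lpcat1 was called in 5 of 8 tests, each time higher, and Sftpc in 3 of 7, each time higher. Sftpb was called in 4 of 8, 1 higher and 3 lower, and Lamp3 in 2 of 7, both lower. Napsa was called in 2 of 7, both higher, and Slc34a2 in 2 of 7, once in each direction. Sftpd and Abca3 were each called higher in 1 and Sftpa1 lower in 1. Over the 18 libraries of 3154 and 1027B, with each gene centred in its own table, Sftpa1 and Sftpb moved together (Pearson r = 0.91), as did Lamp3 and Slc34a2 (0.84), Sftpa1 and Napsa (0.81), Sftpb and Napsa (0.80), Abca3 and Lpcat1 (0.75) and Sftpc and Sftpd (0.70). Sftpb and Sftpc moved against each other (-0.80). Those r values share the same libraries and treatments and are descriptions only. Over all 22 mouse libraries and 12598 genes the profile most like Sftpb was that of Etv4 (r = 0.95), followed by Gcnt4 and Lad1. Among the profiles most like Lpcat1 were Rasl11b (0.95) and Clcn7 (0.94), and those most like Abca3 were Cplane1, Add1 and Dop1a (0.92 to 0.95).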

How the data were processed

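Poly(A) RNA was read from both ends after directional library preparation, per the labels' protocols. The authors deposited raw read counts per gene in 7 tables, 4 mouse and 3 human, made with cutadapt 3.5, STAR 2.7.6a and featureCounts 1.6.3, per the submitters' processing notes. Those notes list the builds mm10, mm39 and hg38 with no assignment to tables, and the strand setting is not given in the sources used here. One allele named in the labels and 1 gene that the rule for named genes selects are not reported here.

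Counts were fitted with edgeR 4.0.16 (R 4.3.3), 1 table at a time: filterByExpr, TMM scaling, group means, the quasi-likelihood F-test and Benjamini-Hochberg adjustment over all genes tested, with calls at an adjusted p under 0.05. The H358 and H1651 trametinib tables were joined for 1 interaction test. In it SFTPB, with 0 counts in every H358 library, was left out. Depth was 19692517 to 45284286 counts per library, and the biological coefficient of variation was 0.0949 to 0.193. A count of 0 was read as allowing up to 3 counts. Mouse levels per kilobase used merged exon lengths of GENCODE M21 on GRCm38, and promoters came from RefSeq. The other settings tried were DESeq2 1.42.0, upper-quartile or RLE factors, testing with no count filter, at least 10 counts in every library, only the 2 groups compared, the replicate block, a limit of 1 on the absolute log2 change, and leaving out each library, where the lone library was assumed to vary like the other groups. CPM with no TMM scaling was tried for the levels.

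In 1027B the samples with the same replicate number deviated together (r = 0.24 to 0.41 over the 3 pairs of groups), so the numbers were taken to pair them. Calls were tested on simulated data with 200 genes changed 3-fold: over 12 comparisons, 61% to 89.5% of the changed genes were recovered, and 4.14% to 13.5% of calls were unchanged genes. The members and gene lists were chosen with earlier results of these data known. Named genes are the members, SFTPA2, at most 2 called rises and 2 called falls of largest change from each further list in a comparison, and the 3 genes whose log2 CPM (prior count 2, centred in each table) correlated best with a member tested in all 4 mouse tables. Replicate pairs differed beyond counting noise in every group (chi-square per degree of freedom 5.40 to 79.5). Python 3.11.15 and matplotlib 3.10.9 drew the figures.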

Additional observations from a re-analysis of the deposited data

Results flagged for a closer look

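The trametinib effect on ABCA3 differed between H358 and H1651 in a test of the difference itself, with a log2 change larger in H358 by 1.27 (edgeR adjusted p = 0.0429). ABCA3 missed the threshold in 6 of the 8 fits without 1 library (adjusted p 0.0806 to 0.129). For SLC34A2 the fitted difference of 4.34 is a description only, because the gene passed the count filter only through the H358 trametinib libraries in which it is high. It had at most 10 counts in any H1651 library, and its difference was 2.29 without H1651 vehicle replicate 1.

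The other differences below were not tested, and stand out only because every treated library moved one way in one experiment and the opposite way in another. Sftpd had a log2 change of -0.11 on Hnf4a deletion at 2 weeks and of 0.38 in the 48-hour experiment with vehicle, a difference of -0.49, and neither change was called. With MRTX1133, at 20 nM in 1027B and 3 nM in 3154 after ethanol, Sftpa1 had log2 changes of -2.52 and 0.32, a difference of -2.84 (the 1027B value ran from -3.56 to -1.90 without 1 library), and Slc34a2 of -1.16 and 0.43, a difference of -1.59. None of these 4 changes was called by edgeR with the default count filter, all groups fitted and no replicate block. With the block the 1027B changes of Sftpa1 (adjusted p = 0.000156) and Slc34a2 (0.00852) were called, and Slc34a2 in 1027B was also called under DESeq2 (0.000806), with no count filter (0.0476) and when only the 2 groups were fitted (0.0169). With trametinib, at 10 nM in 1027B and 20 nM in H358, the log2 changes were -1.96 and 0.92 for Napsa (difference -2.88), -3.34 and 1.13 for Lamp3 (-4.47) and -1.16 and 4.57 for Slc34a2 (-5.73). The Slc34a2 difference has the same limit, since H358 vehicle held 5 and 6 counts and the gene passed the filter only through the trametinib libraries. Species, culture and dose differ there, and they cannot be told apart.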

How the results depend on the processing

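Counts of members called that moved to or from 0, or by more than the tolerance for a stable count, were these. On Hnf4a deletion at 2 weeks DESeq2 and upper-quartile factors gave 1 each in place of 0. With no count filter MRTX1133 in 3154 after ethanol gave 1, and DESeq2 gave 2. MRTX1133 against trametinib gave 2 under DESeq2. A limit of 1 on the absolute log2 change left 2 in the 48-hour deletion with vehicle, 1 in the deletion under MRTX1133, 1 for MRTX1133 after 4OHT and 3 in H358. At least 10 counts in every library left 1 in the comparison of H358 with H1651. The share of all genes called was not taken for DESeq2, upper-quartile factors or the changed count filters.

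With the replicate block the counts were 7 for MRTX1133 in 1027B and 5 for MRTX1133 against trametinib, where replicates were paired. Elsewhere samples shared only a number: the replicate block gave 4 for the 2-week deletion, 2 for doxycycline, 2 for trametinib in H1651 (ABCA3 at adjusted p = 6.09e-08 and LAMP3 at 3.14e-05) and 4 for H358 against H1651. It also called SFTPD in H358 (adjusted p = 0.0243). The share of all genes called with the block was taken only for 1027B, so the counts outside 1027B have no share beside them. Between same-numbered samples of the 48-hour 3154 groups r ran from -0.25 to 0.55, and in the tables with 1 pair of groups it was 0.43 (3154 at 2 weeks), 0.13 (3311), 0.32 (doxycycline), 0.62 (H1651 trametinib) and 0.32 (H358).

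Leaving out each library in turn moved the count from 0 to 3 at 2 weeks, from 1 to 7 in the 48-hour deletion with vehicle, to 1 in the deletion under MRTX1133, from 0 to 3 for MRTX1133 after ethanol, to 0 after 4OHT, from 1 to 2 for MRTX1133 in 1027B, from 5 to 7 for trametinib in 1027B, from 1 to 2 in 3311, from 0 to 1 for trametinib in H1651, from 4 to 5 in H358 and from 0 to 2 for H358 against H1651.

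Changes near 0 turned sign with the scaling or the count filter. Sftpb was 0.0181 with upper-quartile factors at 2 weeks, and in the deletion under MRTX1133 it was 0.00719 with DESeq2 and with RLE factors, 0.0791 with upper-quartile factors and 0.0281 with at least 10 counts. Slc34a2 was 0.0317 with upper-quartile factors for MRTX1133 after 4OHT, and for MRTX1133 against trametinib -0.0055 with DESeq2, -0.0062 with RLE factors and -0.00059 with upper-quartile factors. Signs also turned when 1 library was left out: on deletion at 2 weeks Sftpb ran from -0.36 to 0.21 and Sftpa1 from -0.37 to 0.13, and at 48 hours with vehicle Sftpc ran from -0.67 to 0.12 and Lamp3 from -0.0142 to 0.35, and under MRTX1133 Sftpb from -0.0856 to 0.0671. For MRTX1133 after ethanol Lamp3 ran from -0.31 to 0.0494 and Abca3 from -0.0181 to 0.52. After 4OHT Sftpd ran from -0.12 to 0.13, Abca3 from -0.29 to 0.0828 and Slc34a2 from -0.13 to 0.10, and the interaction for Napsa from -0.36 to 0.15. In 1027B Abca3 with MRTX1133 ran from -0.0654 to 0.12, and for MRTX1133 against trametinib Napsa ran from -0.80 to 1.37 and Slc34a2 from -0.37 to 0.51. With doxycycline SFTPB ran from -0.94 to 0.68 and NAPSA from -1.46 to 0.36. With trametinib in H1651 SFTPB ran from -2.12 to 1.87, NAPSA from -0.99 to 1.54 and LPCAT1 from -0.28 to 0.52. For H358 against H1651 NAPSA ran from -0.60 to 1.94, SFTPD from -0.0725 to 5.79 and LPCAT1 from -0.0941 to 0.69. The cause was not tested. Levels without TMM scaling were 0.902 to 1.09 times those with it. Few counts limit the precision for members such as SFTPB and SLC34A2 in H1651.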

Other observations

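With trametinib in H358, where 46.8% of all genes were called, the wider surfactant lists held calls in both directions. Of 16 lipid synthesis genes 9 fell, among them FASN (log2 change -2.00) and SCD (-1.80), and 3 rose, among them CHKA (0.73) and PCYT1A (0.64), with a median of -0.55 beside 0.02 over all genes. Of 15 processing and turnover genes 4 rose, among them the lipid flippase ATP8A1 (2.08) and the protease CTSH (2.00), and 4 fell, among them the receptor ADGRF5 (-2.50). Of 14 factors that act on surfactant genes 7 rose, among them HOPX (2.24) and FOXA1 (1.30), and 2 fell, ETV5 (-5.83) and FOXA2 (-3.97). In 3311, where 39% of genes were called, the same kind of list had 3 rises of 14, among them Hopx (2.84) and Gata6 (1.13), and 4 falls, among them Sox9 (-3.55) and Etv5 (-1.83).

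Genes of type 1 cells, the flat cells that exchange gas, were counted in the same way. With trametinib 5 of 10 rose in 1027B, against 26.7% of genes called, among them Ager (3.87) and Rtkn2 (2.38), and Aqp5 fell (-0.49), with a median of 1.25 beside -0.01 over all genes. In H358, 7 of 10 rose and 1 fell, with a median of 1.15. At 2 weeks after Hnf4a deletion in 3154, where 9.81% of genes were called, 3 of 14 other type 2 genes rose, among them Cd74 (4.66), and 3 fell, among them S100g (-2.68) and Pgc (-2.60). Gastric markers there summed to 176 to 248 CPM after ethanol and 616 to 950 CPM after 4OHT, and club cell markers to 35.3 to 46.8 and 141 to 164. Leukocyte markers were at 18.4 to 44.6 and 9.91 to 13.3 CPM, basal at 31.7 to 54.8 and 20.3 to 27.9, and endothelial at 11.6 to 13.7 and 6.10 to 11.7. Ciliated markers were at 0.725 to 1.12 and 2.33 to 2.88 CPM, and fibroblast at 0.0898 to 0.264 and 0.412 to 0.853. Their part was not tested.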
